A study of Mus musculus with 16 samples.

Results

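The BCL2 family decides whether a cell keeps or permeabilizes its mitochondrial outer membrane, and 10 of its genes were followed here in myeloid-derived suppressor cells (MDSCs) of tumor-bearing mice. The genes were chosen by name for their place in the family, with earlier results of these data known, from the 24421 gene symbols counted. They are the anti-apoptotic Bcl2, Bcl2l1, Mcl1, Bcl2a1a, Bcl2a1b and Bcl2a1d, the BH3-only genes Bcl2l11 and Bbc3, and the effectors Bax and Bak1. C57BL/6 mice, either wild-type (WT) or Nlrp3-/-, carried tumors of B16.F10 melanoma cells, a C57BL/6 melanoma line placed under the skin of the back. NLRP3 is the sensor of the inflammasome that activates caspase-1, and in the Nlrp3-/- mice an EGFP cassette disrupts the gene in every host cell, while the implanted tumor cells keep it. Monocytic MDSCs (M-MDSCs, CD11b high Ly6C+Ly6G-) and granulocytic MDSCs (G-MDSCs, CD11b high Ly6C-Ly6G+) were sorted from the spleen, and each RNA sample came from 1 mouse. There were 4 mice of each genotype, both subsets were taken from each of the 8 mice, and 16 libraries of 3′ mRNA tags resulted, 4 per group.

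Anti-apoptotic members of the family hold the effectors BAX and BAK in check on the mitochondrial surface. BH3-only proteins such as BIM (Bcl2l11) and PUMA (Bbc3) bind the anti-apoptotic members or the effectors, and freed effectors form pores that release cytochrome c. Neutrophils are short-lived cells known for a need for MCL1, and the Bcl2a1 copies encode A1, an anti-apoptotic protein of hematopoietic cells whose gene is a target of NF-κB.

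The 3 Bcl2a1 copies stand on mouse chromosome 9 and are near-identical, which bears on every value given for them. Their transcripts are 98.2% identical between Bcl2a1a and Bcl2a1b, 98.8% between Bcl2a1a and Bcl2a1d and 99.1% between Bcl2a1b and Bcl2a1d. Of the 75-base windows in the last 400 bases of a transcript, where 3′ tags fall, 65.6% of those of Bcl2a1a, 58.3% of those of Bcl2a1b and 34.7% of those of Bcl2a1d occur in no other copy, so the split of reads among the copies is uncertain. Their sum is given beside them, but it too is uncertain, since reads that match several copies may have been left out of the counts. Likeness extends upstream. The stretches below, from the RefSeq promoters of GRCm38.p6, lie before the start sites at chr9:88956778-88956853 (plus strand) for Bcl2a1a, chr9:89199087-89199162 (plus strand) for Bcl2a1b and chr9:88731917-88731992 (minus strand) for Bcl2a1d, and capitals mark the letters GGAAGT, an ETS-type core.
Bcl2a1a: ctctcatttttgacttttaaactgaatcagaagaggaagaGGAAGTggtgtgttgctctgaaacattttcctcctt
Bcl2a1b: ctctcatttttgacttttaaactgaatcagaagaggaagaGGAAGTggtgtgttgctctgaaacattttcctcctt
Bcl2a1d: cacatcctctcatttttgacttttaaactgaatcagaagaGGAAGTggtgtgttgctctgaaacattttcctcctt

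Bcl2a1a and Bcl2a1b are identical over these 76 bases, and Bcl2a1d is identical to them at 70 of 76 aligned positions, the others being a gap. GGAAGT was picked after the sequences had been seen. Searched on both strands, it occurs in 7 of the 15 promoters of the members, 3 of them those of the near-identical copies, and in 23.8% of 32851 RefSeq promoters of the same length. The letters of a loose NF-κB-type site, GGG and CC with any 5 bases between them, whose matches on both strands can overlap, occur in 11 of the 15 promoters of the members and in 50.8% of all promoters. Of the 10 members 8 had a match. Bcl2a1b was among them, while Bcl2a1a and Bcl2a1d had none.

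Library depth was 2295967 to 6079866 counts, so that 3 counts, the smallest level taken as measurable, correspond to 0.493 to 1.31 CPM, counts scaled to a common library total, before TMM scaling. Nlrp3 itself was at 40.6 to 88.7 CPM in M-MDSCs with the gene and 0.513 to 1.87 in those without, and in G-MDSCs at 251 to 330 and 5.50 to 13.6 CPM. The 10 neutrophil markers summed to 1454 to 8740 CPM in M-MDSCs and 115179 to 175535 in G-MDSCs, and the 9 monocyte markers to 6593 to 10406 and 785 to 1359 CPM. The 8 B cell markers summed to 106 to 207 CPM in M-MDSCs and 286 to 421 in G-MDSCs, with 7 of 7 tested called higher in G-MDSCs of WT and 6 of 7 of Nlrp3-/- mice. Of 8 dendritic cell and macrophage markers tested, 5 and 6 were called higher in G-MDSCs, and 1 was called lower in each genotype. In WT mice Itgax averaged 17.3 CPM in M-MDSCs and 176 in G-MDSCs, while Flt3 averaged 17.4 and 0.565. The part of these lists in the differences of members between subsets was not tested. M-MDSC WT replicate 2 stood apart, with neutrophil markers at 8740 CPM against 1454 to 1878 in the other 3, and proliferation markers at 579 against 175 to 194. Of the 5 markers of B16 melanoma cells, Mlana, Tyr and Tyrp1 were at 0 in all 16 libraries, and the list summed to at most 1.45 CPM.

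Mcl1 was higher in G-MDSCs than in M-MDSCs of both genotypes and had the smallest adjusted p of the 10 members in both subset comparisons. MCL1 is a short-lived protein that binds BIM and BAK, and its gene lies at chr3:95658788-95663176 (mm10, plus strand). In WT mice the M-MDSC libraries were at 639, 834, 861 and 805 CPM and the G-MDSC libraries at 2574, 2453, 3128 and 2759. In Nlrp3-/- mice the M-MDSC libraries were at 813, 708, 707 and 734 CPM and the G-MDSC libraries at 3318, 2997, 2795 and 3310. Every G-MDSC library lay above every M-MDSC library. By the quasi-likelihood test of edgeR, with p-values adjusted by Benjamini-Hochberg, Mcl1 was 3.48-fold higher in G-MDSCs of WT mice (log2 1.80, SE 0.18, adjusted p = 5.42e-06, n = 4 per group) and 3.86-fold higher in those of Nlrp3-/- mice (log2 1.95, SE 0.15, adjusted p = 8.75e-08). Between the genotypes its libraries overlapped, with means of 785 ± 99.9 (SD) against 741 ± 49.9 CPM in M-MDSCs and 2729 ± 295 against 3105 ± 255 in G-MDSCs. The 95% intervals of the log2 difference were -0.36 to 0.25 and -0.20 to 0.40. In sorted bulk samples fewer cells of a type and less RNA per cell cannot be told apart.

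**Figure D1:**
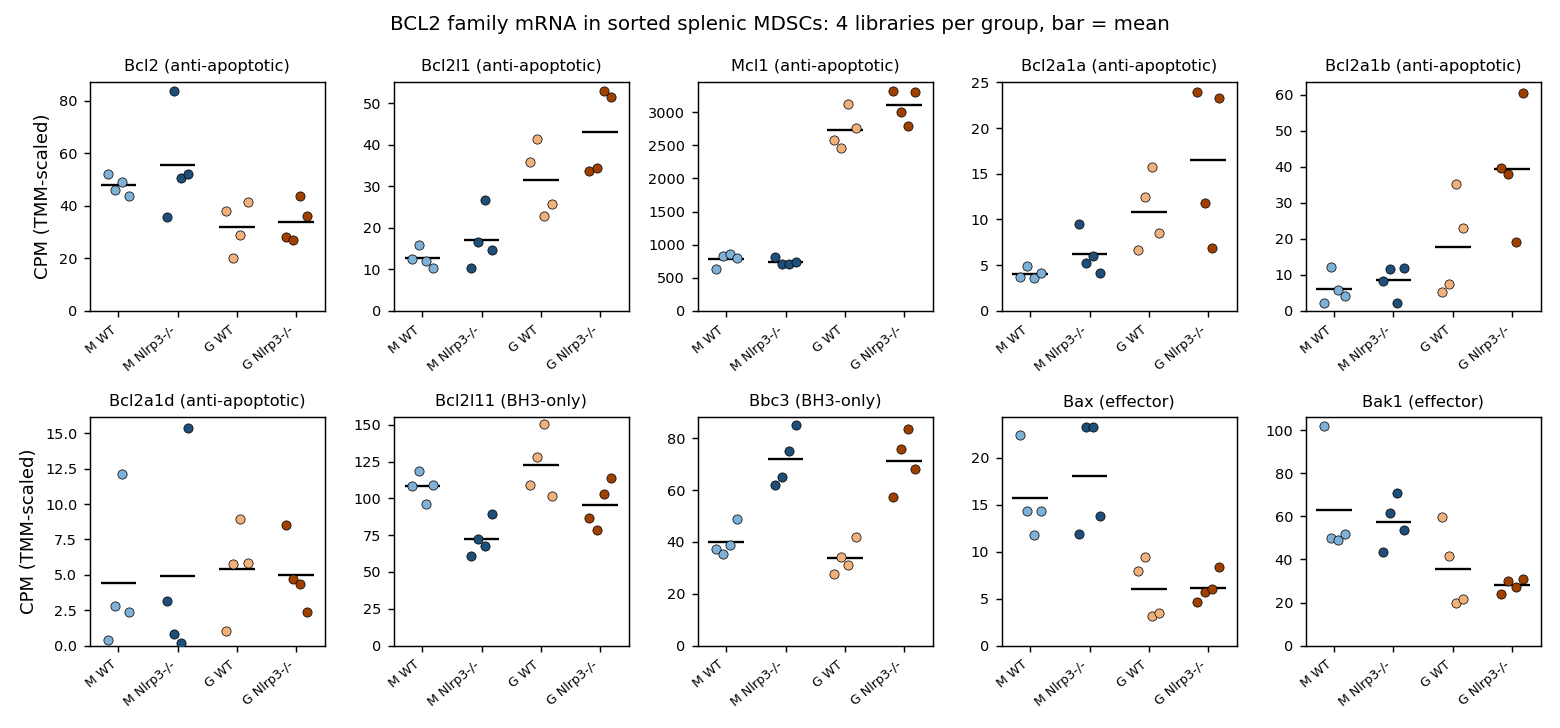
Level of each of the 10 members in the 16 libraries, as CPM on a linear axis that starts at 0 and differs in range between genes. Each point is 1 library, the groups from left to right are M-MDSC WT, M-MDSC Nlrp3-/-, G-MDSC WT and G-MDSC Nlrp3-/-, and the bars are group means. Mcl1 and Bcl2l1 lie higher in the G-MDSC groups, Bax lies lower, and Bbc3 is higher in both Nlrp3-/- groups than in the WT group of the same subset.

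A change is called here where the adjusted p is under 0.05 and the fold change above 1.5. All 10 members passed the filter on low counts in each comparison. Between the subsets of WT mice 4 members were called, 3 higher and 1 lower in G-MDSCs, against 53.3% of the 9739 genes tested (26.3% higher and 27.1% lower). In Nlrp3-/- mice 7 were called, 4 higher and 3 lower, against 51.0% of 10071 genes (23.7% higher and 27.4% lower). The libraries of the subsets did not overlap for 5 members in each genotype, against 51.9% and 50.2% of all genes. The median log2 difference of the members was 0.23 in WT and 0.07 in Nlrp3-/- mice, and -0.05 and -0.12 over all genes tested. With the mouse kept as a block, 7 members were called in WT mice too, Bcl2 (log2 -0.62, adjusted p = 0.0153), Bcl2a1b (1.44, 0.0237) and Bak1 (-0.87, 0.00185) being added. That fit called 5447 of the 9739 genes, against 5193 without the block. Scaling the libraries by their size alone moved the median of all genes by -0.74 in WT and -0.71 in Nlrp3-/- mice and ended the calls of Bcl2l1 and Bcl2a1a. Relative to that median Bcl2l1 was then at 1.34 and 1.36, Mcl1 at 1.84 and 2.06 and Bax at -1.35 and -1.54.

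Bcl2l1 (chr2:152780668-152831728, minus strand), which encodes BCL-XL, was also higher in G-MDSCs. Its WT libraries were at 12.6, 15.9, 11.9 and 10.3 CPM in M-MDSCs and at 36, 41.6, 23.0 and 25.7 in G-MDSCs, without overlap. The Nlrp3-/- libraries were at 10.3, 16.5, 26.7 and 14.7 CPM in M-MDSCs and at 33.7, 34.5, 53.0 and 51.6 in G-MDSCs, again without overlap. The rise was 2.47-fold in WT (log2 1.3, SE 0.25, adjusted p = 0.000734) and 2.36-fold in Nlrp3-/- mice (log2 1.24, SE 0.28, adjusted p = 0.00197). Between genotypes Bcl2l1 was not called, with log2 differences of 0.42 (SE 0.28, adjusted p = 0.332) in M-MDSCs and 0.37 (SE 0.25, adjusted p = 0.327) in G-MDSCs.

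Bcl2 itself (chr1:106538178-106714274, minus strand), the founding member of the family, ran the other way. In M-MDSCs its means were 47.8 ± 3.60 CPM (WT) and 55.5 ± 20.2 (Nlrp3-/-), and in G-MDSCs 32.1 ± 9.73 and 33.7 ± 7.94 (SD, n = 4). In WT mice the M-MDSC libraries (43.8 to 52.1 CPM) all lay above the G-MDSC libraries (19.9 to 41.6). The WT difference had an adjusted p of 0.0404 but a 1.49-fold size, just under the fold minimum (log2 -0.58, SE 0.22). In Nlrp3-/- mice Bcl2 was 1.77-fold lower in G-MDSCs (log2 -0.83, SE 0.25, adjusted p = 0.0131), though the libraries overlapped, with M-MDSCs at 35.6, 83.8, 50.7 and 51.9 CPM and G-MDSCs at 27.9, 26.9, 43.9 and 36.2. That call was lost without M-MDSC replicate 2 (log2 -0.58, adjusted p = 0.0601), the highest library, and without G-MDSC replicate 2 (log2 -0.70, adjusted p = 0.0547). Nlrp3-/- and WT mice differed in Bcl2 by log2 0.23 (SE 0.22, adjusted p = 0.507) in M-MDSCs and -0.01 (SE 0.25, adjusted p = 0.986) in G-MDSCs, and the sign of the second value turned under other settings.

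The Bcl2a1 copies summed in M-MDSCs to 14.6 ± 7.40 CPM (WT) and 19.6 ± 9.47 (Nlrp3-/-), and in G-MDSCs to 33.9 ± 19.9 and 60.8 ± 24.1 (SD, n = 4). The M-MDSC libraries were at 6.12, 19.9, 21.5 and 10.6 CPM in WT and 21.0, 17.7, 8.34 and 31.3 in Nlrp3-/- mice. The G-MDSC libraries were at 13, 25.7, 59.8 and 37.3 CPM in WT and 72.2, 54.5, 30.4 and 86.2 in Nlrp3-/- mice, so that the spread within a group was wide and the groups overlapped in all 4 comparisons. With the copies summed to 1 gene, the edgeR test called them higher in G-MDSCs of WT mice (log2 1.21, SE 0.46, adjusted p = 0.0385) and of Nlrp3-/- mice (log2 1.49, SE 0.37, adjusted p = 0.00382). Exact two-sided permutation tests of the summed CPM gave 0.114 and 0.0571 for the subset comparisons and 0.543 and 0.171 for genotype in M-MDSCs and G-MDSCs, where 0.0286 is the smallest value that 4 against 4 allows. Adjusted over these 4 exact tests the values were 0.229, 0.229, 0.543 and 0.229. Those tests leave the mice out. The sum was higher in the G-MDSC library than in the M-MDSC library of the same mouse in 8 of 8 mice, and an exact two-sided permutation within mice, chosen after the data were seen, gave 0.125 in each genotype, the smallest value that 4 pairs allow.

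Among the single copies, Bcl2a1a was 2.67-fold higher in G-MDSCs of WT mice (log2 1.42, SE 0.34, adjusted p = 0.00335), with M-MDSC libraries at 3.56 to 4.91 CPM below all G-MDSC libraries at 6.67 to 15.7. In Nlrp3-/- mice it was 2.41-fold higher (log2 1.27, SE 0.43, adjusted p = 0.0213), the libraries overlapped, and leaving out M-MDSC replicate 2, M-MDSC replicate 4, G-MDSC replicate 1 or G-MDSC replicate 4 ended the call (adjusted p = 0.0596 to 0.0741). Bcl2a1b was 4.21-fold higher in G-MDSCs of Nlrp3-/- mice without overlap (log2 2.07, SE 0.44, adjusted p = 0.00118), at 8.36, 11.6, 2.08 and 11.8 CPM against 39.7, 38.0, 19.2 and 60.5. In WT mice its log2 difference of 1.51 (SE 0.61, adjusted p = 0.0510) missed the threshold, and it passed without M-MDSC replicate 2 (log2 2.09, adjusted p = 0.0158), G-MDSC replicate 1 (log2 1.82, adjusted p = 0.0185) or G-MDSC replicate 2 (log2 1.77, adjusted p = 0.0297). Bcl2a1d ranged from 0.208 to 15.4 CPM, from 1 to 120 counts, and was called in no comparison (adjusted p = 0.778 to 0.925). Of a library's counts of the copies, Bcl2a1b took a median of 36% (WT) and 38.7% (Nlrp3-/-) in M-MDSCs and 49.9% and 66.5% in G-MDSCs. The median share of Bcl2a1d was 18.3% and 9.86% in M-MDSCs and 15.3% and 10.2% in G-MDSCs, and 2 M-MDSC libraries stood above the rest, WT replicate 3 at 56.2% and Nlrp3-/- replicate 4 at 49.2%. Between genotypes no copy was called, and Bcl2a1b in G-MDSCs (log2 1.04, SE 0.48, adjusted p = 0.151) passed when G-MDSC WT replicate 3 was left out (log2 1.67, adjusted p = 0.0276) or low counts were not filtered (log2 1.04, adjusted p = 0.0337). The annotation places Gm29094 over Bcl2a1b on the same strand, Gm45808 over Bax and Gm37053 over Bcl2, so reads of these members are uncertain to that extent. The fourth copy in the annotation, Bcl2a1c, had 0 counts in all 16 libraries.

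**Figure D2:**
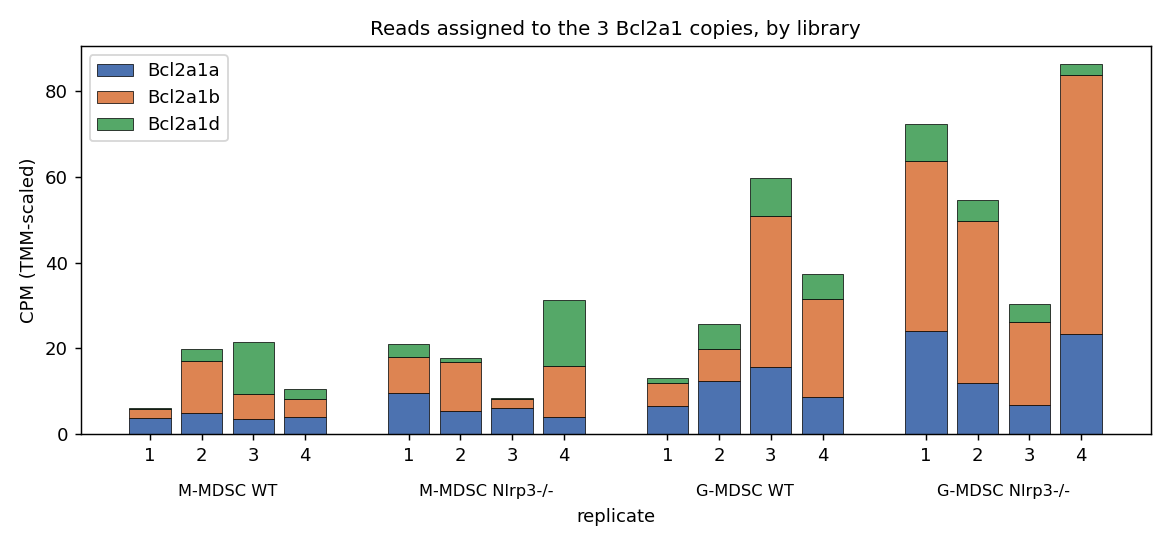
Reads given to Bcl2a1a, Bcl2a1b and Bcl2a1d in each of the 16 libraries, in CPM, stacked so that the height of a bar is the sum of the copies. The bars run from 6.12 to 31.3 CPM in M-MDSCs and from 13 to 86.2 in G-MDSCs, and the part given to Bcl2a1d varies most among the M-MDSC libraries.

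Bbc3 (chr7:16308393-16318205, plus strand), which encodes PUMA, a BH3-only protein induced by p53 and by FOXO factors, was the 1 member called between the genotypes. It was higher in Nlrp3-/- mice in both subsets. In M-MDSCs the WT libraries were at 37.3, 35.2, 38.8 and 48.9 CPM and the Nlrp3-/- libraries at 62.0, 65.2, 75.3 and 85.3. In G-MDSCs they were at 27.7, 34.1, 31.0 and 42.0 CPM and at 57.2, 75.9, 83.6 and 68.1. The genotypes did not overlap in either subset. The rise was 1.83-fold in M-MDSCs (log2 0.87, SE 0.17, adjusted p = 0.00832) and 1.99-fold in G-MDSCs (log2 1.00, SE 0.20, adjusted p = 0.00419). So 1 of the 10 members was called in each subset, against 10.6% of 9986 genes tested in M-MDSCs and 16.4% of 9273 in G-MDSCs, shares close to the members' own, and 3.51% and 4.7% of the genes were called higher. The median log2 difference of the members was 0.22 in M-MDSCs and 0.05 in G-MDSCs, and 0.07 and 0.03 over all genes tested.

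The transcript of Bbc3 is 65.2% GC, at the 99.8th percentile of the genes tested. After a correction for GC content and transcript length its difference was log2 0.49 (adjusted p = 0.0988) in M-MDSCs and 0.59 (adjusted p = 0.0890) in G-MDSCs, and neither call remained. Summed markers of some other cells differed with the genotype. The 12 genes of a dendritic cell and macrophage list summed in M-MDSCs to 75.5 to 125 CPM with Nlrp3 and 166 to 322 without it, and in G-MDSCs to 246 to 416 and 620 to 768, with Xcr1 at 0 in the Nlrp3-/- G-MDSCs. Of its genes 5 of 9 tested were called higher in M-MDSCs and 6 of 7 in G-MDSCs. The 8 proliferation genes summed to 175 to 579 and 83.2 to 165 CPM in M-MDSCs, and to 138 to 458 and 65.6 to 212 in G-MDSCs, with 2 of 8 and 2 of 7 called lower. A list of 11 T and NK cell genes summed to 140 to 205 and 200 to 362 CPM in M-MDSCs, and to 180 to 284 and 279 to 389 in G-MDSCs, the genotypes overlapping in both, with 1 of 11 and 2 of 10 called higher. The part of these lists in the differences of Bbc3 and of Bcl2l11, described next, was not tested. The part of tumor growth, which the paper reports as reduced in Nlrp3-/- mice, was not tested either. Without M-MDSC WT replicate 2, Bbc3 in M-MDSCs was at log2 0.83 (adjusted p = 0.0336).

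Bcl2l11 (chr2:128126038-128162547, plus strand), which encodes BIM, went the other way between the genotypes without being called. In M-MDSCs the WT libraries were at 108, 119, 96.2 and 109 CPM and the Nlrp3-/- libraries at 61.1, 72.5, 67.8 and 89.4, all below the WT libraries. Its adjusted p was 0.0428, but the 1.46-fold difference was under the fold minimum (log2 -0.55, SE 0.16). Without Nlrp3-/- replicate 4 it was called (log2 -0.70, adjusted p = 0.0441). In G-MDSCs the WT libraries were at 109, 128, 151 and 101 CPM and overlapped the Nlrp3-/- libraries at 86.5, 78.6, 103 and 114 (log2 -0.45, SE 0.18, adjusted p = 0.0963). Corrected for GC content and length, the differences were log2 -0.36 (adjusted p = 0.184) and -0.20 (adjusted p = 0.512). With Bbc3, Bcl2l11 made 2 members whose genotypes did not overlap in M-MDSCs, against 19.3% of all genes, and in G-MDSCs Bbc3 stood alone, against 24.4%.

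Between the subsets the BH3-only pair was not called with TMM scaling. Bbc3 differed by log2 -0.25 (SE 0.19, adjusted p = 0.286) in WT and -0.13 (SE 0.18, adjusted p = 0.554) in Nlrp3-/- mice. Bcl2l11 differed by 0.18 (SE 0.16, adjusted p = 0.354) and 0.28 (SE 0.18, adjusted p = 0.208). Scaled by library size only, Bbc3 was at -0.99 and -0.85, which relative to the median of all genes was -0.20 and -0.013. Bcl2l11 was then at -0.56 and -0.44, and relative to that median at 0.23 and 0.39.

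**Figure D3:**
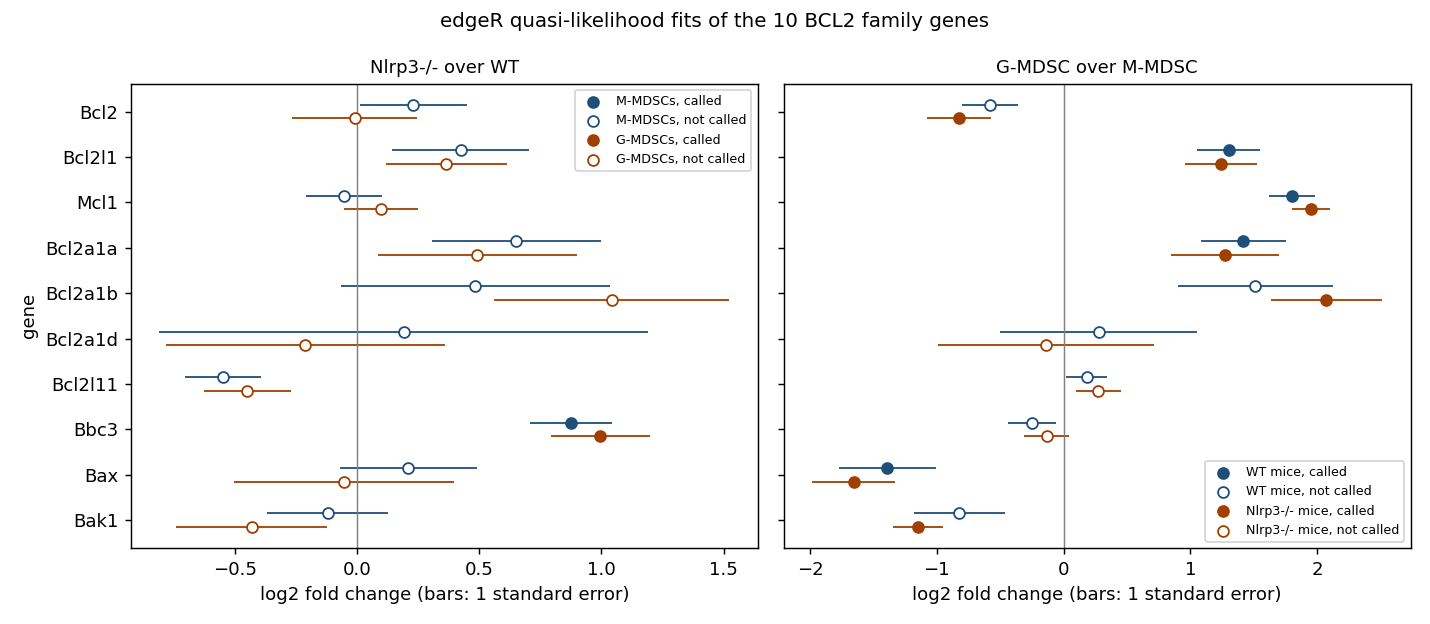
Log2 fold change of each member, Nlrp3-/- over WT on the left and G-MDSC over M-MDSC on the right, with bars of 1 standard error. Filled points were called. On the left only Bbc3 is filled, and on the right Mcl1, Bcl2l1 and Bcl2a1a are filled above 0 and Bax below 0 in both genotypes, with Bcl2, Bcl2a1b and Bak1 filled in Nlrp3-/- mice alone.

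Of the effectors, whose products form the pores in the outer membrane, Bax was lower in G-MDSCs of both genotypes and Bak1 in those of Nlrp3-/- mice. Bax (chr7:45461697-45466898, minus strand) was at 22.4, 14.3, 11.8 and 14.4 CPM in M-MDSCs and 8.0, 9.46, 3.15 and 3.50 in G-MDSCs of WT mice. In Nlrp3-/- mice it was at 11.8, 23.3, 23.4 and 13.9 and at 4.61, 5.67, 6.00 and 8.38 CPM. The subsets did not overlap in either genotype. Bax was 2.62-fold lower in WT (log2 -1.39, SE 0.38, adjusted p = 0.00802) and 3.15-fold lower in Nlrp3-/- mice (log2 -1.65, SE 0.33, adjusted p = 0.000719). Its transcript is 63.5% GC, and its calls between the subsets remained under the GC and length correction.

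Bak1 (chr17:27019810-27029009, minus strand) was 2.21-fold lower in G-MDSCs of Nlrp3-/- mice (log2 -1.15, SE 0.20, adjusted p = 0.000225), with M-MDSC libraries at 43.4, 61.6, 71.1 and 53.7 CPM above all G-MDSC libraries at 24, 30.1, 27.1 and 30.9. In WT mice the libraries were at 102, 49.8, 49.1 and 51.7 CPM and at 59.7, 41.6, 19.8 and 21.8, and the replicate 1 libraries, which share a mouse, were the highest of their groups. There the difference was log2 -0.82 (SE 0.36, adjusted p = 0.0675), and it was called with the mouse as a block. It was called as well without M-MDSC replicate 2 (log2 -1.0, adjusted p = 0.0442) or G-MDSC replicate 1 (log2 -1.18, adjusted p = 0.0122). Neither effector was called between the genotypes. Bax differed by log2 0.21 (SE 0.28, adjusted p = 0.655) in M-MDSCs and -0.05 (SE 0.45, adjusted p = 0.950) in G-MDSCs, and Bak1 by -0.12 (SE 0.25, adjusted p = 0.788) and -0.43 (SE 0.31, adjusted p = 0.361). The signs of Bax in both subsets turned under other settings.

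Whether the difference between the genotypes was itself different in the subsets was asked of each member in a model of all 16 libraries. No member was called by the edgeR test, by DESeq2 or by limma-voom, 0 of 10 had an unadjusted p under 0.05, and 0.028% of 10696 genes were called. For Bbc3 the genotype effect in G-MDSCs minus that in M-MDSCs was log2 0.23 (SE 0.26, 95% interval -0.27 to 0.73). For Bcl2l11 it was 0.21 (SE 0.24, 95% interval -0.26 to 0.68) and for Mcl1 0.27 (SE 0.21, 95% interval -0.15 to 0.69). The same model tests the subset difference between the genotypes, so the 3 members called between subsets in Nlrp3-/- mice alone were not shown to differ between the genotypes. Its interval for Bcl2a1b ran from -0.89 to 2.25 and for Bak1 from -1.05 to 0.63.

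Count ratios within a library do not depend on its scaling. The log2 ratio of Mcl1 to Bcl2l11, an anti-apoptotic gene over the gene of a protein it binds, averaged 2.85 ± 0.25 (WT) and 3.36 ± 0.29 (Nlrp3-/-) in M-MDSCs, and 4.49 ± 0.22 and 5.03 ± 0.26 in G-MDSCs (SD, n = 4). The subsets did not overlap, with differences of 1.63 (SE 0.17) in WT and 1.67 (SE 0.19) in Nlrp3-/- mice. The genotypes overlapped, with differences of 0.51 (SE 0.19) in M-MDSCs and 0.54 (SE 0.17) in G-MDSCs. The log2 ratio of Bcl2 to Bax was 1.64 ± 0.34 and 1.61 ± 0.36 in M-MDSCs and 2.48 ± 1.09 and 2.43 ± 0.34 in G-MDSCs, where it differed between subsets by 0.85 (SE 0.57, overlapping) in WT and 0.82 (SE 0.25, not overlapping) in Nlrp3-/- mice. These ratios are descriptions of mRNA tags and were not tested.

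**Figure D4:**
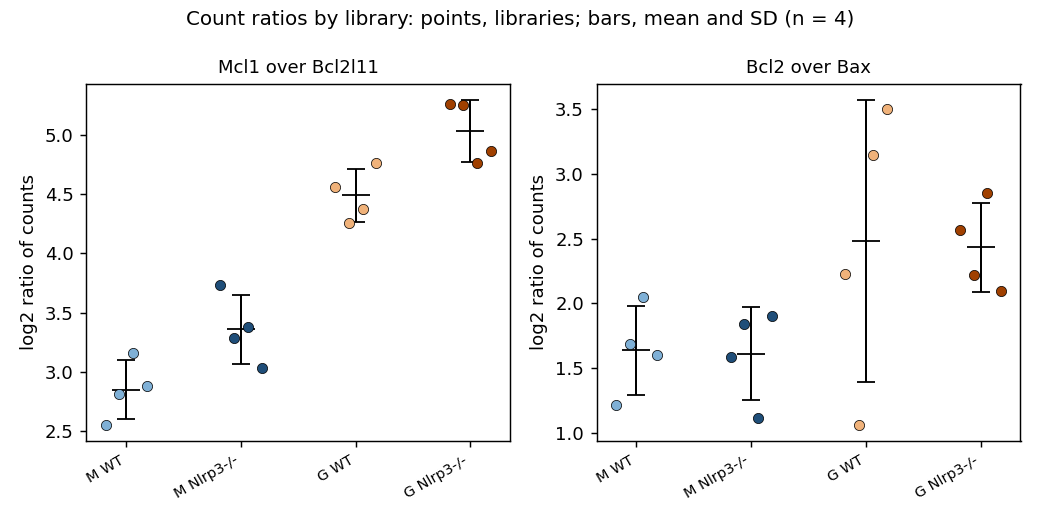
Log2 count ratios of Mcl1 to Bcl2l11 and of Bcl2 to Bax, 1 point per library, with the mean and SD of the 4 libraries of each group. On the left all G-MDSC points lie above all M-MDSC points. On the right the WT G-MDSC points run from 1.06 to 3.50, beyond the 1.11 to 2.85 of the other groups.

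The genes around the family were read from 8 lists of 62 genes, of which 50 to 52 passed the filter on low counts. Between the genotypes 3 were called higher and 7 lower in M-MDSCs, and 4 higher and 8 lower in G-MDSCs, of 52 and 50 genes tested. Over all genes 10.6% and 16.4% were called, and 66.9% and 71.4% of those calls were lower. The lower calls came from 3 lists. Of the list on MCL1 turnover, with 7 genes tested, 4 were lower in both subsets, namely Usp9x (log2 -1.25 in M-MDSCs and -1.45 in G-MDSCs), a deubiquitinase that stabilizes MCL1, Huwe1 (-0.80 and -1.03) and Fbxw7 (-0.89 and -1.10), a ubiquitin ligase and the receptor of another that mark it for degradation, and Gsk3b (-0.82 and -1.22), a kinase that primes it. Vdac1, a channel of the outer membrane, was higher in G-MDSCs (0.93). Of 8 inhibitors of apoptosis, Xiap (-0.76 and -1.08) and Birc6 (-0.79 and -0.99) were lower in both subsets and Birc2 (-1.23) in G-MDSCs. Mcl1 itself, as given above, overlapped between the genotypes and was not called.

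Of the apoptosome list, Casp9, the initiator caspase, was higher in both subsets (log2 0.67 and 1.12), and Aifm1, a mitochondrial flavoprotein, was lower in both (-0.77 and -1.10). The death receptor Fas was higher in G-MDSCs (0.81), and of the survival cytokine receptors Csf2ra was higher in M-MDSCs (0.68) and Csf1r in G-MDSCs (0.64). No gene of the other anti-apoptotic, effector or BH3-only lists was called between the genotypes. Many of the lower genes have long transcripts, 14579 bases for Huwe1, 15768 for Birc6 and 11887 for Usp9x. Under the GC and length correction, 1 of the 10 calls in M-MDSCs remained, Fbxw7, and 6 of the 12 in G-MDSCs. The inhibitors of apoptosis then had 0 called lower and 1 higher in M-MDSCs, and 1 lower and 1 higher in G-MDSCs.

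Between the subsets the surrounding genes differed more often, with 18 called higher and 16 lower in G-MDSCs of 51 tested in WT mice, and 14 higher and 13 lower of 52 in Nlrp3-/- mice, against the 53.3% and 51.0% of all genes given above. With library size only, the lists had 5 called higher and 24 lower in WT mice, 21 of them as before. In Nlrp3-/- mice they had 10 higher and 26 lower, 23 as before. Among other BH3-only genes Bid was higher in G-MDSCs (log2 1.43 in WT and 2.03 in Nlrp3-/- mice), as was Pmaip1, which encodes NOXA, a partner of MCL1 (1.27 and 0.95). The WT libraries of Bid overlapped. In WT mice 0 calls of this list remained with library size only, and 2 of its genes were then called lower. Bad was lower in Nlrp3-/- mice (-0.75), and the mitophagy receptor Bnip3 was higher in both genotypes (2.60 and 2.27). Of the apoptosome list Cycs, the gene of cytochrome c (-2.13 and -2.0), and Casp6 (-1.82 and -1.93) were lower. Of the death receptor list Fas (2.47 and 2.90) and Tnfrsf1a (1.32 and 1.63) were higher and Casp8 lower (-1.22 and -1.46). Of the survival regulators Csf3r, the receptor of G-CSF, was higher (5.19 and 5.27), as were Ddit3, which encodes the stress-induced transcription factor CHOP (2.48 and 2.45), and Stat5b (1.29 and 1.37). Csf1r was lower (-1.46 and -1.46). Of the 12 genes of that list 8 were higher and 3 lower in WT mice, and 7 and 2 in Nlrp3-/- mice. Of the 7 tested on MCL1 turnover 2 were higher and 2 lower in WT mice, and 0 and 2 in Nlrp3-/- mice. Naip5 (-2.32 and -2.88) and Naip6 (-4.33 and -3.10) were lower, and as near-identical paralogs they may share reads.

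Genes whose level followed a member most closely over the 16 libraries were listed by Pearson's r of log2 CPM, as a description over libraries that share mice and fall into 2 subsets. For Mcl1 these were Tnfaip2 (r = 0.996), Steap4 (0.994) and Il1b (0.993). Within the 8 M-MDSC libraries r fell to 0.86 for Tnfaip2 and 0.55 for Il1b, and none was obtained for Steap4. Within the 8 G-MDSC libraries r was 0.72 for Tnfaip2, 0.90 for Steap4 and 0.83 for Il1b. For Bcl2l11 they were Ik (0.91), Nktr (0.88) and Bmp2k (0.87), with 0.96 for Ik within M-MDSCs and 0.92 within G-MDSCs. For Bcl2 they were Rnf123 (0.92), Zfp3 (0.88) and Bop1 (0.87). For the sum of the Bcl2a1 copies they were Fam220a (0.95), Gbas (0.94) and Tlr2 (0.93).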

How the data were processed

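Raw counts per gene symbol were deposited by the authors, who mapped 75-base QuantSeq 3′ reads to mm10 with HISAT2 2.1.0 and counted them by strand with HTSeq. Counts were used as deposited. Each comparison was fitted within its 2 groups by edgeR's quasi-likelihood test (edgeR 4.0.16, R 4.3.3) after filterByExpr and TMM, with Benjamini-Hochberg adjustment over all genes tested; a call needs an adjusted p under 0.05 and, except for the interaction, a fold change above 1.5. The standard error is the log2 fold change divided by the square root of F. Printed CPM were scaled by TMM over all 16 libraries, so ratios of group means can differ from fitted folds. Locations, lengths and GC came from GENCODE (mm10).

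M-MDSC and G-MDSC libraries of a number and genotype come from the same mouse per the labels, and their deviations from the group means correlated at r = 0.0082 to 0.40. WT and Nlrp3-/- libraries of a number come from different mice. No 2 libraries of a group agreed within sampling noise. Floors cover counting error only, and 95% intervals of log2 differences are normal intervals from the standard error.

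All 10 members are named, with the called genes of the 8 lists that have the smallest p (at most 4 per list and comparison) and their values in the paired comparison, Vdac1 and transcript lengths being added after the values were seen, and the 3 genes most like Bcl2, Mcl1, Bcl2l11 and the Bcl2a1 sum. Members and lists were chosen with earlier results of these data known. Alternatives were a replicate block, a GC and length correction by splines, DESeq2 1.42.0, its size factors, library size only, no filter, edgeR's exact test, limma-voom (limma 3.58.1), summed copies, a model of all 16 samples, no fold minimum and leaving out each library. Scripts were tested on simulated data. Ly6g and the protein sequences were not analysed here, and the values of some genes of the lists are not reported here.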

Additional observations from a re-analysis of the deposited data

Results flagged for a closer look

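Of 40 groups of 4 libraries, 10 members in 4 groups, 1 had a library far from the others. Bak1 in M-MDSC WT replicate 1 was at 102 CPM (550 counts), while the other 3 libraries lay between 49.1 and 51.7, so that the gap took up 0.953 of the range, above Dixon's 95% critical value for 4 samples. Chance flags about 1 in 20 such groups. Without that library the genotype difference of Bak1 in M-MDSCs was log2 0.23 (adjusted p = 0.402), against -0.12 with it. The G-MDSC library of the same mouse was also the highest of its group, at 59.7 CPM against 19.8 to 41.6.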

How the results depend on the processing

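The replicate block numbered WT and Nlrp3-/- mice that are different animals (r = -0.45 to 0.017, 0 of 8 libraries closest to their own number). With it 425 genes were called between genotypes in M-MDSCs and 985 in G-MDSCs, against 1060 and 1522, with Bbc3 among them (adjusted p = 0.0302 and 0.0170). The GC and length correction called 668 and 965 genes, 502 and 695 of them as before, and with the block 48 and 396, and 0 members in either subset in all 4 cases. Members called in M-MDSCs became 2 with no fold minimum, and in G-MDSCs 2 with no filter. Of all genes, 1139 of 9986 and 1729 of 15311 were then called. Leaving out 1 library gave 450 to 1783 and 1104 to 1544 genes and 1 to 2 members in each subset. Between subsets of WT mice 7 members were called with the mouse block, with block and correction, and with no filter. Of all genes, 5447 and 5362 of 9739 and 5809 of 15713 were called there. Without 1 library, 4 to 7 members and 4838 to 5272 genes were called in WT mice. In Nlrp3-/- mice these were 5 to 7 members and 4810 to 5106 genes. The interaction had 3 genes, 8 by DESeq2, 5 with no filter and 2 to 5 without 1 library. The block changed no other call of a member.

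Scaling by library size alone moved the median log2 difference of all genes by 0.10 and 0.12 between genotypes and took the lower share of calls from 66.9% to 45.4% and from 71.4% to 51.9% for genotype, and from 50.8% to 81.3% and 53.6% to 81.5% for subsets. The correction gave 56.1% and 57.5%, the block 84.2% in M-MDSCs and the model of all 16 libraries 56.6% in G-MDSCs. Under library size alone Bcl2l1 (log2 0.55, adjusted p = 0.0521, and 0.53, 0.114) and Bcl2a1a (0.68, 0.0945, and 0.54, 0.290) lost their calls between subsets.

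Signs turned for values that were uncalled as reported, the cause not being tested. In M-MDSCs Bcl2a1d was -0.042 with the block, Mcl1 0.0012 with the correction, 0.0064 with both and 0.044 by library size, and Bax -0.16 and -0.17 with the correction and both. In G-MDSCs Bcl2 was 0.0098 with the block, 0.43 with the correction, 0.45 with both, 0.011 by DESeq2 or its size factors, 0.11 by library size and 0.076 in the model of 16, Bax 0.045, 0.083 and 0.039 with block, library size and that model, and Bcl2a1d 0.74 when summed with its copies. Between subsets of WT mice library size gave -0.50 for Bcl2a1d and -0.56 for Bcl2l11, and of Nlrp3-/- mice -0.44 for Bcl2l11, which relative to the shifted median of all genes were 0.30, 0.23 and 0.39, while Bcl2a1d was 1.01 with the block, 0.072 with the correction, 1.19 with both and 1.49 summed. In the interaction Bcl2a1d was 0.43 with the block, 0.33 with both, 0.13 by limma-voom and 0.41 summed, Bcl2a1a 0.41 summed, Bax 0.061 by limma-voom, and Bcl2l1 -0.071 with the correction, -0.028 with both, -0.031 by DESeq2 or its size factors and -0.026 by library size.

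Leaving out 1 library turned the sign within these ranges. For genotype they were -0.22 to 0.23 (Bak1), -0.075 to 0.36 (Bcl2) and -1.57 to 1.46 (Bcl2a1d) in M-MDSCs and -0.26 to 0.27 (Bax), -0.17 to 0.14 (Bcl2) and -0.59 to 0.19 (Bcl2a1d) in G-MDSCs. For subsets Bcl2a1d ran from -0.15 to 1.51 in WT and -0.52 to 1.61 in Nlrp3-/- mice. In the interaction they were -0.54 to 0.16 (Bak1), -0.47 to 0.15 (Bax), -0.0097 to 0.35 (Bbc3), -0.47 to 0.13 (Bcl2), -0.32 to 0.23 (Bcl2a1a), -0.15 to 1.28 (Bcl2a1b), -1.55 to 1.44 (Bcl2a1d), -0.30 to 0.34 (Bcl2l1) and -0.040 to 0.33 (Bcl2l11). Values for Bax and the Bcl2a1 copies are limited by depth, with as few as 1 count of Bcl2a1d in a library.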
